A study of Saccharomyces cerevisiae with 12 samples.

Results

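The 67 genes described here are the mitochondrial ribosomal protein genes of Saccharomyces cerevisiae by name: every gene of the deposited expression table whose standard name is MRPL, MRPS, MRP or RSM followed by a number, of 5935 genes in all. The annotation puts 38 of them in the large subunit of the mitochondrial ribosome and 28 in the small subunit, and 1 member, MRP8, is annotated as a protein that was only at first taken for a ribosomal protein. The expression profiles came from a study of SWI/SNF, the ATP-dependent nucleosome remodelling complex of yeast, and of what the loss of its subunit Snf5 does to the complex and to transcription. RNA from 12 log-phase cultures at 30 °C was sequenced as poly(A)-selected libraries, 3 for each of 4 haploid MATa strains, and the cultures were described as independent biological replicates. The strains share the BY4741 background with its his3, leu2, met15 and ura3 deletions. By their labels, wild-type cells have a double FLAG tag with a LEU2 marker on Snf2, whereas the snf5, snf2 and swp82 deletions (kanMX4 replacements) carry that tag on Snf6. Tag position and deletion thus cannot be told apart where a deletion is set against the wild type. Snf2 is the catalytic ATPase of the complex, Snf5 a core subunit, and Swp82 an accessory subunit.

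The mitochondrial ribosome, or mitoribosome, translates the few messages encoded in mitochondrial DNA, which specify core subunits of the respiratory chain and ATP synthase. Nearly all of its proteins are encoded in the nucleus, made in the cytosol and imported. Some belong to families also found in bacterial ribosomes and others occur in mitochondria alone, and in this yeast their genes are scattered over the genome, transcribed separately, and needed for growth by respiration rather than for growth on glucose.

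The deleted genes matched the labels. SNF5 gave at most 2 reads in the snf5 deletion libraries against 99.4 ± 2.46 (SD, n = 3) scaled CPM (read counts scaled to library size) in the wild type, SNF2 gave 6 to 8 reads in the snf2 deletion against 97.6 ± 5.21, and SWP82 gave 0 reads in the swp82 deletion against 59.8 ± 0.287. A count of 0 allows up to 3 reads a library, which is 0.240 to 0.353 scaled CPM, and covers counting error only. LEU2 went against the genotype labels: it had 536 to 953 reads in each wild-type and snf5 deletion library and 0 in each snf2 and swp82 deletion library. LEU2 status therefore goes with the snf2 and swp82 deletions wherever they are compared with the other strains, and its part in those results was not tested. The libraries held 9012746 to 12875057 reads, of which the members took 0.433% to 0.585%, and the lowest member had 203 reads or more in every library. All 67 members passed the filter on low values. Values are scaled CPM with the SD over 3 libraries, and fold changes are on the log2(scaled CPM + 1) scale.

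In the wild type the members spanned a 7.64-fold range, from lowest to highest, once set against gene length. Per kilobase of coding sequence, the lowest was RSM22, a small subunit protein, at 37.2 ± 0.953 scaled CPM, followed by MRPS5 (the uS5 protein) at 51.9 ± 0.403 and MRPL24 (bL28) at 57.3 ± 2.40. The highest was MRPS12 (uS12, a protein of the decoding centre) at 284 ± 19.3, after MRPL39 (bL33) at 264 ± 14.2 and MRPS16 (bS16) at 236 ± 10.6. RSM22 has the longest coding sequence of the members, at 1887 bases. MRPS12, MRPL39 and MRPS16 have 462, 213 and 366 bases, against a median of 699. The part of gene length in this order was not tested. MRPL39 and MRPS12 lay within their spread of each other, while RSM22 lay below MRPS5 by more than both SDs. The median was 105, and 58 of the 67 members were within 2-fold of it. Large subunit members had a median of 103 and small subunit members one of 113 scaled CPM per kilobase, so the median level of the subunits was similar.

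**Figure D1:**
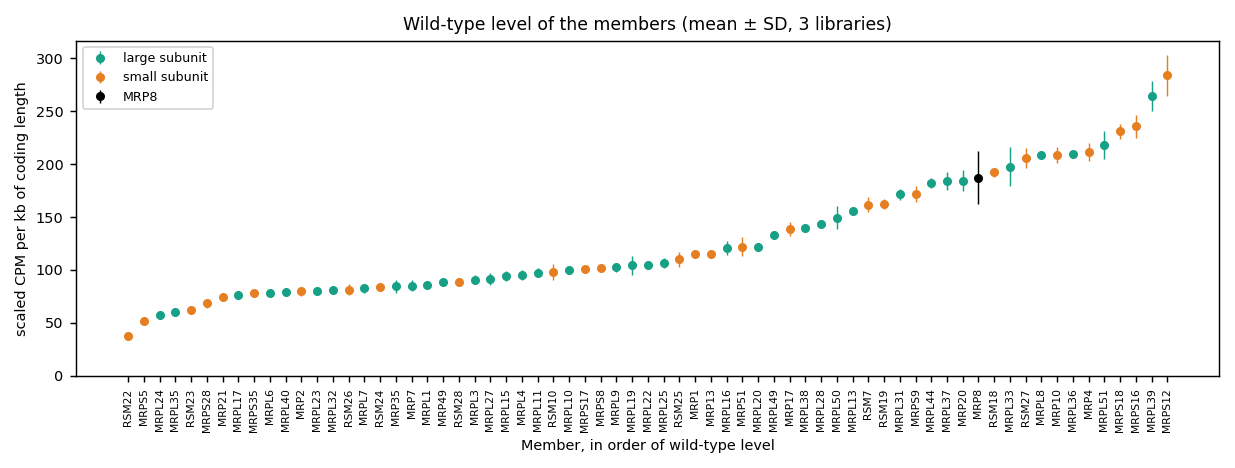
Wild-type level of each of the 67 members, in scaled CPM per kilobase of coding length, in order from the lowest; points are means and bars the SD of 3 libraries, coloured by subunit. The level runs from 37.2 for RSM22 to 284 for MRPS12, and members of both subunits are found along the whole range.

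Replicates were close for the members: the median coefficient of variation of a member was 4.20% in the wild type, 4.95% in the snf5 deletion, 5.75% in the snf2 deletion and 6.0% in the swp82 deletion. Over all genes tested the snf5 deletion libraries were less alike. Log2 values of snf5 deletion 1 and 3 correlated at 0.975, the lowest of all replicate pairs, where wild-type pairs gave 0.995 to 0.998. No member changed 2-fold in any of the 6 comparisons between strains, and none is in the list of 506 genes that the authors' deposited table gives as changed at least 2-fold. The changes were small, and the order of the strains depended on the scaling. In scaled CPM, 43 of the 67 members (64.2%, against 24.1% of all genes tested) had their lowest mean in the snf5 deletion and 18 in the swp82 deletion, whereas with libraries scaled to total reads alone, called total-read scaling below, the numbers were 17 (25.4%, against 17.3%) and 50 (74.6%, against 52.4%). The highest mean was in the wild type for 43 members in scaled CPM (64.2%, against 17.6% of all genes) and for 13 with total-read scaling (19.4%, against 11.8%), where the other 54 were highest in the snf2 deletion (80.6%, against 45.4%). The wild type held the lowest mean of 0 members under either scaling. Of the members, 38 passed the test in at least 1 deletion against the wild type and 29 in none. Of all genes tested, 29.3%, 27.7% and 3.49% were called in either direction in the snf5, snf2 and swp82 deletions. The share of all genes called in at least 1 of them was not counted. The 3 comparisons with the wild type share its 3 libraries, so their values are given side by side and not as independent results.

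**Figure D2:**
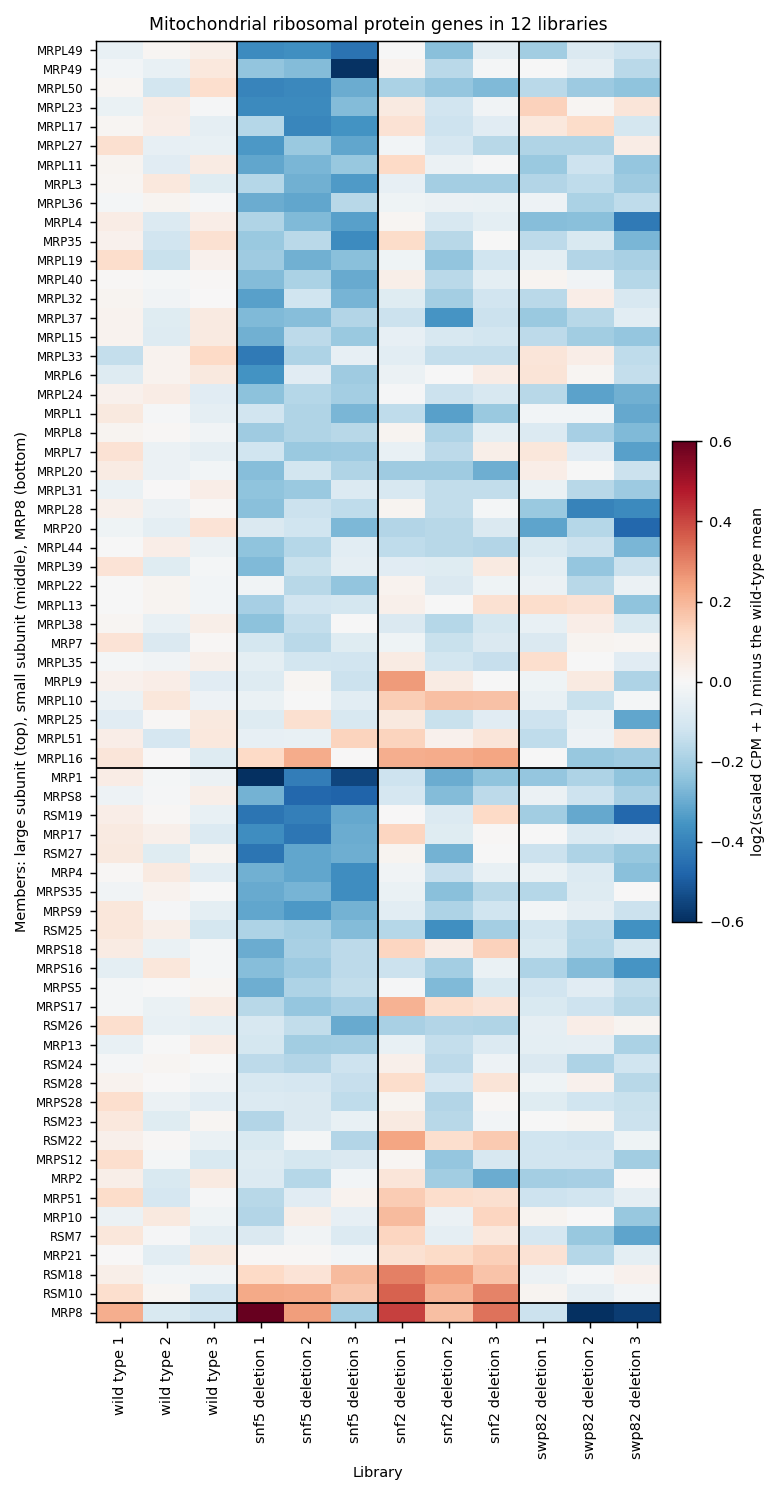
Each of the 67 members (rows, large subunit above, small subunit in the middle, MRP8 at the bottom) in each of the 12 libraries (columns); colour is log2(scaled CPM + 1) minus the wild-type mean, and differences beyond ±0.6 are drawn at the end of the scale. Most rows are blue in all 3 snf5 deletion libraries, the swp82 deletion libraries are paler, and the snf2 deletion libraries mix both signs; with total-read scaling, which is not drawn, the swp82 deletion has the lowest mean of 50 members and the snf2 deletion the highest of 54.

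Many mitoribosomal genes were lower without Snf5, each by a modest amount. Against the wild type, 32 members fell and 1 rose at an adjusted p under 0.05 (limma, adjusted over all 5820 genes tested), which is 47.8% of the members lower, where 14.5% of all genes tested were called lower and 14.8% higher. The median log2 fold change of the members was -0.19, against -0.01 for all genes tested, and 62 of 67 members were below 0. In 46 members the 3 snf5 deletion libraries all lay below the 3 wild-type libraries, which is 68.7% of the members against 20.2% of all genes. Both subunits were involved: 19 of 38 large subunit members and 13 of 28 small subunit members fell. Members of families shared with bacteria fell in 20 of 41 cases and members known from mitochondria alone in 12 of 24. RSM22 and MRP8 have no family name and were placed in neither class.

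MRP1, a small subunit protein (mS43) related to superoxide dismutases, had the largest fall. It measured 115, 110 and 109 scaled CPM in the wild type and 72.5, 83.4 and 75.7 in the snf5 deletion. The groups did not overlap, and the level of 77.2 ± 5.59 was 69.3% of the wild-type level of 111 ± 3.24, a log2 fold change of -0.53 ± 0.06 (SE, limma adjusted p = 0.000122). MRP1 was also below every wild-type library in the snf2 deletion, at 102, 90.4 and 94.0, and in the swp82 deletion, at 94.6, 97.9 and 93.9. MRPS8, the uS8 protein that binds small subunit RNA, measured 46.8, 47.6 and 49.0 in the wild type and 39.1, 34.2 and 34.0 in the snf5 deletion. All 3 deletion libraries lay lower, with a log2 fold change of -0.41 ± 0.07 (limma adjusted p = 0.00124).

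The promoter windows of MRP1 and MRPS8 are shown because these members fell most in the snf5 deletion. Each runs 5′ to 3′ from 250 bases before to 50 bases after the first base of the coding sequence, in the R64 reference (sacCer3), with the start codon and the matches to the searched motifs in capitals. The MRP1 gene lies at chrIV:1169178-1170143 on the plus strand and its window is chrIV:1168928-1169227. The MRPS8 gene lies at chrXIII:572248-572715 on the plus strand and its window is chrXIII:571998-572297.
MRP1: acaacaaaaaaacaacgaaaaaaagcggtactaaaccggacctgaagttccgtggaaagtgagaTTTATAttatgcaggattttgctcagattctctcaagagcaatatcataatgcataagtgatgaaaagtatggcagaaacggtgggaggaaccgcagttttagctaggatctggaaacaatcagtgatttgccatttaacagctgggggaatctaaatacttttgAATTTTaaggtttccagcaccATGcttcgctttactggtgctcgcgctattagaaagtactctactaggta
MRPS8: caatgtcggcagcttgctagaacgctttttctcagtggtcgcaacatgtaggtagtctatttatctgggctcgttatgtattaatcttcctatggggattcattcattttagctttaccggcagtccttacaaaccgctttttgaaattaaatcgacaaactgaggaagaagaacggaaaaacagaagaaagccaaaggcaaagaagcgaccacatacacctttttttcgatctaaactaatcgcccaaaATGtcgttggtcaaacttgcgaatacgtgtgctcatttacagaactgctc
MRP1 had AATTTT, known as the rapid growth element from mitoribosomal promoters of Candida albicans, 21 bases before its start codon, and TTTATA, the reverse strand of TATAAA, 186 bases before it. MRPS8 held none of the 7 motifs searched. Its upstream neighbour AIM36, which encodes a mitochondrial protein, starts 203 bases away on the opposite strand, and AIM36 also fell in the snf5 deletion, by 0.27 on the log2 scale (limma adjusted p = 0.0322). SVF1, which starts 518 bases from MRP1 on the opposite strand, had a log2 fold change of 0.06 (limma adjusted p = 0.807).

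The other members with large falls in the snf5 deletion came from both subunits. MRPL49, the large subunit protein bL21, measured 62.5, 65.1 and 66.1 scaled CPM in the wild type and 49.5, 49.9 and 47.2 in the snf5 deletion. The log2 fold change was -0.40 ± 0.07 (limma adjusted p = 0.00125), again with no overlap. RSM19, the uS19 protein of the small subunit head, measured 46.0, 45.0 and 43.3 in the wild type and 32.7, 33.4 and 35.9 in the snf5 deletion. Its level fell to 76.0% of wild type, and its swp82 deletion libraries, at 38.6, 36.0 and 32.0, were also all below the wild type. MRP17, the bS6 protein, measured 57.0, 56.1 and 51.9 in the wild type and 42.2, 40.3 and 44.5 in the snf5 deletion. Its snf2 deletion libraries, at 60.2, 52.1 and 55.2, overlapped the wild type, so the low level of MRP17 was seen in the snf5 deletion libraries and not in those of the snf2 deletion. MRPL50 (bL9) fell by 0.36, MRP49 (mL61) by 0.36 and RSM27 (mS33) by 0.35 on the log2 scale, with limma adjusted p-values of 0.00121, 0.0147 and 0.00843. MRP4 (uS2), which is the most abundant member per library at 251 ± 10.1 in the wild type, measured 200 ± 6.06 in the snf5 deletion, with the reservation that an open reading frame on the opposite strand overlaps it and the strand setting of the counting is not given in the sources used here.

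RSM10 was the 1 member that rose in the snf5 deletion. This uS10 protein measured 64.5, 60.6 and 55.3 scaled CPM in the wild type and 70.5, 70.2 and 67.2 in the snf5 deletion, without overlap. The log2 fold change was 0.21 ± 0.06 (limma adjusted p = 0.0328), and leaving out wild type 2, wild type 3, snf5 deletion 1 or snf5 deletion 2 ended the call (adjusted p up to 0.132). RSM18, the bS18 protein, lay on the same side, at 87.1, 85 and 91.5 against 82.1, 79.3 and 79.0 in the wild type, but did not pass the test (log2 fold change 0.13, limma adjusted p = 0.0778). In bacterial ribosomes the bS18 protein binds next to bS6, whose yeast counterpart MRP17 was among the largest falls in the same libraries. RSM19 and MRPS12 are neighbours on chromosome XIV, 229 bases apart on the same strand with RSM19 upstream. Beside the fall of RSM19, MRPS12 measured 124, 122 and 123 in the snf5 deletion against 141, 130 and 123 in the wild type, so its groups overlapped (log2 fold change -0.09, or 0.0013 with total-read scaling, limma adjusted p = 0.373).

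Of the 32 falls, 16 kept an adjusted p under 0.05 whichever single library was left out, among them MRP1, MRPS8, MRPL49, MRPL50, MRP17, RSM19 and RSM27. The count was 21 without wild type 1 and 19 without wild type 3, and it was 13 when libraries were scaled to total reads alone, where the median of all genes shifts to 0.08 and that of the members to -0.10.

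**Figure D3:**
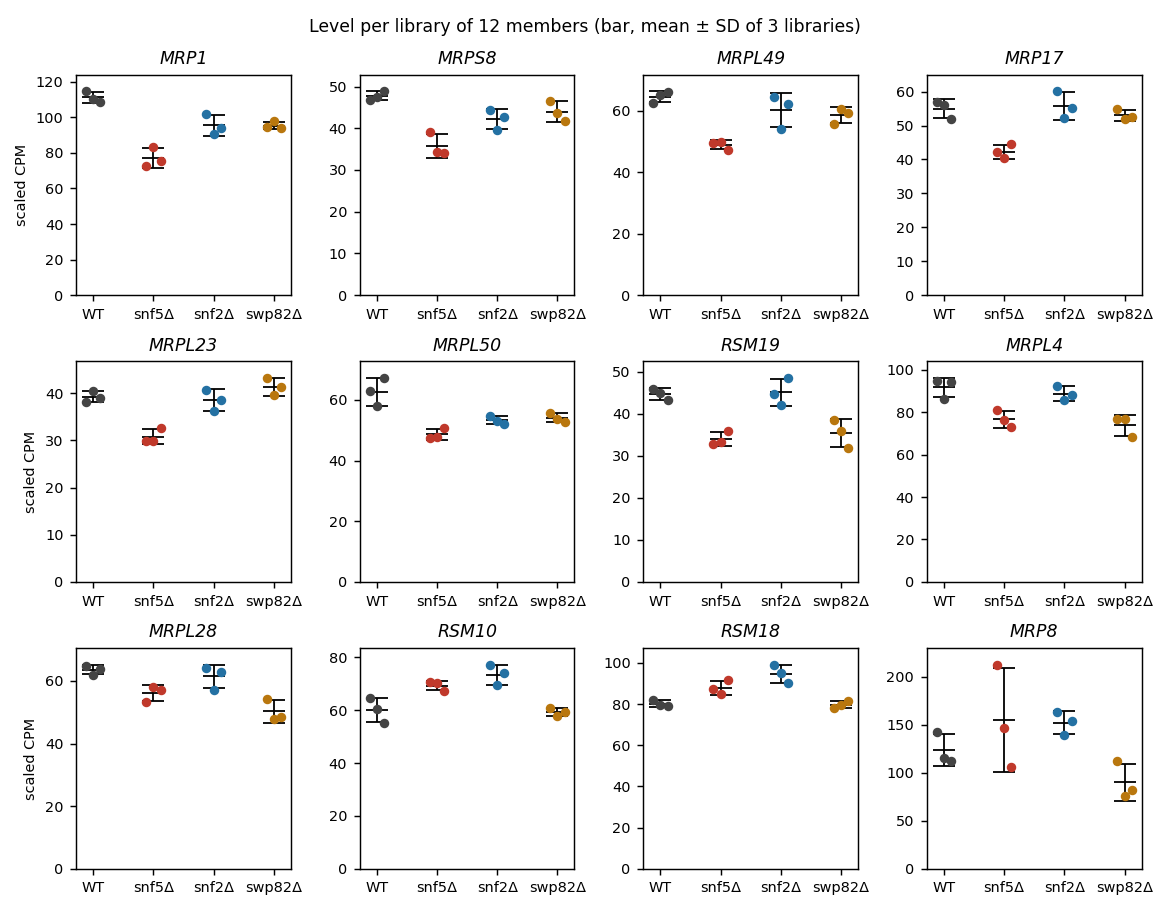
Scaled CPM in each library for 12 members by strain (WT, wild type; Δ, deletion); points are libraries and bars the mean ± SD of 3 libraries, and every axis starts at 0. MRP1, MRPS8, MRPL49, MRP17 and MRPL23 are lowest in the snf5 deletion, MRPL28 and MRPL4 in the swp82 deletion, and RSM10 and RSM18 are higher in the snf2 deletion.

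Without Snf2 as many members were called higher as lower in scaled CPM, while the signs of all members were uneven and depended on the scaling. At an adjusted p under 0.05, 4 members rose and 4 fell (limma), 5.97% of the members each way, while 13.6% of all genes tested were called higher and 14.1% lower, so the share of members called was under that of all genes. The median log2 fold change was -0.06 (0.09 with total-read scaling), against 0.00 for all genes, and 47 of 67 members were below 0 (13 with total-read scaling, and 38 without snf2 deletion 2). In 17 members the 3 snf2 deletion libraries all lay below the wild type, 25.4% of the members against 25.9% of all genes. They all lay above it in 7 members, 10.4% against 27.1%. Of the 67 members, 41 belong to families shared with bacteria and 24 to families known from mitochondria alone. The 4 that rose, RSM10, RSM18, MRPL16 and MRPL10, all belong to families shared with bacteria. Of the 4 that fell, RSM25, MRPL20 and MRP1 belong to families known from mitochondria alone and MRPL50 to one shared with bacteria. With so few calls, most of them lost when 1 library was left out, nothing is concluded about the families.

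RSM10 measured 76.9, 69.4 and 74.0 scaled CPM in the snf2 deletion, above its wild-type values of 55.3 to 64.5. The rise was 0.29 ± 0.06 on the log2 scale (limma adjusted p = 0.00661). RSM18 measured 99.0, 95.1 and 90.2 against 79.0 to 82.1, a rise of 0.24 ± 0.05 (limma adjusted p = 0.00535). Both rises kept their call without any 1 library. MRPL16, the uL16 protein, measured 97.9, 98.5 and 99.3 in the snf2 deletion and 88.7, 84.4 and 79.7 in the wild type (log2 fold change 0.23, limma adjusted p = 0.0457). MRPL10, the uL15 protein, measured 107, 110 and 109 against 94.4, 102 and 94.8 (0.17, limma adjusted p = 0.0290). Both pairs of groups were apart, yet each of these calls was lost in 5 of the 6 fits that left out 1 library, with adjusted p up to 0.158 for MRPL16 and 0.10 for MRPL10. On the low side, MRPL20 (mL58) measured 61.7, 61.6 and 58.3 in the snf2 deletion and 74.1, 69.96 and 70.9 in the wild type, a fall of 0.24 (limma adjusted p = 0.0124). RSM25 (mS23) fell by 0.25, MRPL50 by 0.23 and MRP1 by 0.22, with limma adjusted p-values of 0.0378, 0.0175 and 0.0250. None of the 4 falls kept its call through every fit that left out 1 library. The count of falls was 1 without wild type 1, 2 without wild type 2, 1 without snf2 deletion 2 and 0 without snf2 deletion 3. The count of rises was 2 without wild type 3 or any 1 of the snf2 deletion libraries. With total-read scaling, which shifts the median of all genes to 0.13, 12 members rose and 0 fell, and the members' median lay 0.05 under that of all genes. How many of all genes were called with that scaling was not counted.

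The windows before RSM10 and RSM18 are shown because, of the members called, these rose most in the snf2 deletion, with capitals as above. The RSM10 gene lies at chrIV:539803-540414 on the plus strand (window chrIV:539553-539852) and RSM18 at chrV:253971-254387 on the minus strand (window chrV:254338-254637).
RSM10: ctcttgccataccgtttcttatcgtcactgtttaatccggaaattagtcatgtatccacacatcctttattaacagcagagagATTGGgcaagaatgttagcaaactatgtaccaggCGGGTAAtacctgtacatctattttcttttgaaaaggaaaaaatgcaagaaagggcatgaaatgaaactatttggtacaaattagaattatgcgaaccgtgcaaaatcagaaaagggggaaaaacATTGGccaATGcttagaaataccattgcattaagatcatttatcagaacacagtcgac
RSM18: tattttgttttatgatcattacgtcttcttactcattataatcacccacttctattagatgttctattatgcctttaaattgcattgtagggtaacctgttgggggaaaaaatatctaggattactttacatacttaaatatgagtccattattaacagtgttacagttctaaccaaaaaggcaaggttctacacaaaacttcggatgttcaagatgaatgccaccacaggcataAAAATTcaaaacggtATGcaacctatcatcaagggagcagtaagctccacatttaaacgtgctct
RSM10 held CGGGTAA, the reverse strand of the Reb1 motif TTACCCG, 133 bases before its start codon, and ATTGG, the reverse strand of the CCAAT box bound by the HAP complex, 167 and 8 bases before it. RSM18 held AAAATT, the reverse strand of AATTTT, 15 bases before its start codon. The nearest upstream genes did not pass the test in the snf2 deletion: the log2 fold change was -0.14 for ENA1, 1335 bases from RSM10 (limma adjusted p = 0.411), and 0.21 for JHD1, 268 bases from RSM18 (limma adjusted p = 0.0603).

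Across the members, the 250 bases before the start codon were searched on both strands, with overlaps between motifs allowed, and the same search was run on 5682 promoters of the genome. AATTTT was found in 37.3% of members against 49.7% of all promoters, CCAAT in 29.9% against 35.7%, and TATAAA in 32.8% against 42.9%. The Reb1 motif was found in 10 members, 14.9% against 7.34%, and the Abf1 motif in 28.4% against 12.1%. CACGTG was found in 2 members (2.99% against 2.78%) and the Rap1 motif ACCCANACA in 0, against 1.30% of all promoters. The 10 members with TTACCCG were MRPL3, MRPL19, MRPS12, MRPL23, MRP10, MRPL9, MRPS17, MRPL10, RSM10 and MRP8. In the snf2 deletion their log2 fold changes ran from -0.15 for MRPL3 to 0.30 for MRP8, with 4 of the 10 below 0 and a median of 0.10, against -0.07 for the members without it (0.24 and 0.08 with total-read scaling). In the snf5 deletion the corresponding medians were -0.08 and -0.19 (0.014 and -0.10 with total-read scaling). Members with the Abf1 motif had medians of -0.21 in the snf5 deletion and -0.05 in the snf2 deletion, beside -0.18 and -0.06 for those without it. These are descriptions of letters in a window and carry no test. Another gene is divergently transcribed upstream of 38 of the 67 members, at a median distance of 337.5 bases.

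Without Swp82 the members lay slightly below the wild type, and few passed the test. At an adjusted p under 0.05, 5 members fell and 0 rose (limma), 7.46% of the members lower, in a comparison in which 2.08% of all genes tested were called lower and 1.41% higher. With replicate numbers as a block, taken as pairing these cultures, 7 members fell, 10.4% against 6.68% of all genes. At an unadjusted p under 0.05, 20 members were lower and 0 higher (29.9% lower, where 12.3% of all genes were lower and 12.3% higher), and edgeR and DESeq2 on the recovered reads also called 0 higher. The median log2 fold change was -0.11 against 0.00 for all genes, 63 of 67 members were below 0, and in 28 members the 3 swp82 deletion libraries all lay below the wild type, 41.8% of the members against 16.1% of all genes.

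MRPL28, the mL40 protein of the large subunit, measured 64.8, 62.0 and 63.8 scaled CPM in the wild type and 54.4, 47.9 and 48.5 in the swp82 deletion. Its fall of 0.34 ± 0.07 on the log2 scale had a limma adjusted p of 0.0227. MRPL4, the uL29 protein at the exit of the peptide tunnel, measured 94.5, 86.4 and 94.0 against 76.6, 76.7 and 68.1, a fall of 0.31 ± 0.07 (limma adjusted p = 0.0310). RSM19 fell by 0.33 (adjusted p = 0.0445), MRPS16 by 0.27 (0.0464) and MRPL24 by 0.26 (0.0445), all by limma. In each of the 5 members the groups were apart. None of the 5 calls survived every fit that left out 1 library: 0 members were called lower without wild type 1, 2 or 3 or without swp82 deletion 3, 1 without swp82 deletion 2, and 8 without swp82 deletion 1. When only the wild type and the swp82 deletion were fitted, 0 were called, with adjusted p from 0.0565 to 0.0958 for these 5.

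**Figure D4:**
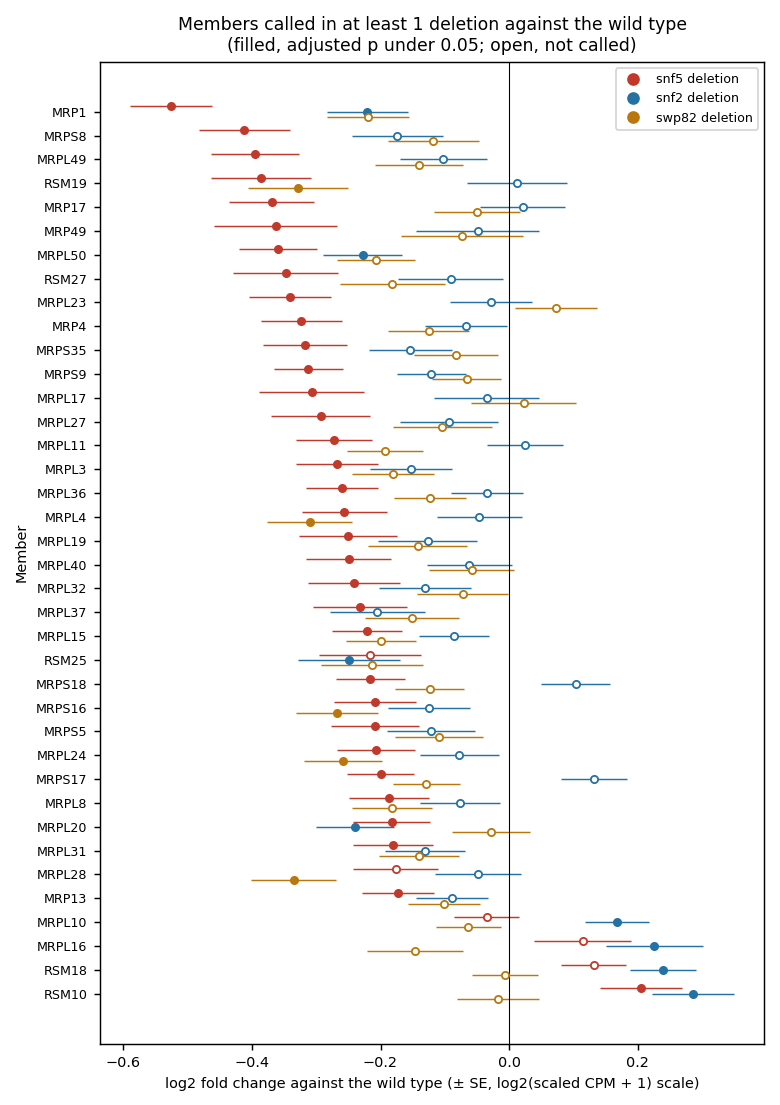
Log2 fold change against the wild type, with SE, of the 38 members that passed the test in at least 1 deletion, for the snf5, snf2 and swp82 deletions; filled points have an adjusted p under 0.05 and open points do not. The snf5 deletion points reach -0.53 for MRP1, the swp82 deletion points lie mostly between them and 0, and RSM10, RSM18, MRPL16 and MRPL10 are the members above 0 in the snf2 deletion that passed.

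The falls overlapped in part between strains. MRP1, MRPL20 and MRPL50 were called lower in both the snf5 and the snf2 deletion, MRPL4, MRPL24, MRPS16 and RSM19 in both the snf5 and the swp82 deletion, and 0 members in all 3. As 47.8% of the members were called lower in the snf5 deletion, some shared calls arise from that share alone. The share of all genes called in the same pairs was not counted, so nothing is concluded from the overlap. The comparisons with the wild type share its libraries, so the deletions were also compared directly, in comparisons that do not involve the tagged Snf2 strain. The direct comparisons reuse the same deletion libraries and are not independent of each other or of those with the wild type. LEU2 status also differs between the snf5 deletion and the snf2 and swp82 deletions.

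The snf5 deletion lay below the snf2 deletion. In that comparison 13 members were lower and 0 higher (limma), 19.4% of the members, where 6.68% of all genes tested were called lower and 5.79% higher. At an unadjusted p under 0.05, 26 members were lower and 0 higher (38.8% lower, where 14.3% of all genes were lower and 13.1% higher). Lower calls numbered 15 by edgeR (22.4%, against 6.68% of all genes), 17 by DESeq2 (25.4%, against 7.54%) and 4 when only these groups were fitted with limma (5.97%, against 2.46%), and edgeR and DESeq2 called 0 higher. RSM19 (44.8, 42.2 and 48.6 in the snf2 deletion) was lower in the snf5 deletion by 0.40 on the log2 scale and MRP17 by 0.39 (limma adjusted p = 0.00888 and 0.00516). MRPS17, the uS17 protein, measured 64.1, 61.1 and 62.6 scaled CPM in the snf5 deletion and 83.4, 77.5 and 76.3 in the snf2 deletion. The difference was -0.33 ± 0.05 (limma adjusted p = 0.00342). MRPS18, the uS11 protein, measured 123, 132 and 135 against 165, 155 and 166, a difference of -0.32 ± 0.05 (limma adjusted p = 0.00481). The wild type lay between the deletions for both genes, at 70.1 to 74.5 for MRPS17 and 147 to 156 for MRPS18. These 4 calls and that of MRPL11 (uL10, the base of the ribosomal stalk) held whichever library was left out. The count of 13 was 5 without snf2 deletion 1, 7 without snf2 deletion 3 and 8 without snf5 deletion 3.

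Against the swp82 deletion, the snf5 deletion had 12 members lower and 3 higher (limma), 17.9% and 4.48% of the members, where 21.5% and 20.4% of all genes tested were called lower and higher, so the share lower was near that of all genes. With total-read scaling the direction turned, to 1 lower and 17 higher, and the median went from -0.07 to 0.09, still 0.06 under that of all genes. The calls among all genes were not counted with that scaling. MRPL23, the uL13 protein, was lower by the largest amount, at 29.9, 29.9 and 32.7 scaled CPM in the snf5 deletion and 43.3, 39.6 and 41.3 in the swp82 deletion. Its wild-type values of 38.2, 40.5 and 39.1 were also above every snf5 deletion library. The difference between the deletions was -0.41 ± 0.06 (limma adjusted p = 0.000552), and it was the 1 fall of the 12 still called with total-read scaling. MRPL17 (mL46) was lower by 0.33, MRP17 by 0.32 and MRP1 by 0.31 (limma adjusted p = 0.00839, 0.00338 and 0.00338). Members called lower in the snf5 deletion than in each of the other 3 strains numbered 6, namely MRP1, MRP17, MRP4, MRPL23, MRPL49 and MRPS9 (uS9), which is 8.96% of the members against 2.78% of all genes. With total-read scaling it was MRPL23 alone, 1.49% against 2.18%. The 3 higher were MRP8, MRPL16 and RSM10, by 0.74, 0.26 and 0.22. None of these 3 calls held through every fit that left out 1 library: their count was 1 without swp82 deletion 2 or 3 or snf5 deletion 2, and 5 without swp82 deletion 1.

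Between the snf2 and swp82 deletions, 15 members were higher in the snf2 deletion and 2 lower (limma), 22.4% and 2.99% of the members beside 21.7% and 21.8% of all genes tested. With total-read scaling 52 were higher and 0 lower, and the median was 0.27, which is 0.06 above that of all genes. All genes thus shifted the same way with that scaling, and the share of them called was not counted. MRPL16 differed by 0.37, RSM19 by 0.34 and RSM10 by 0.30 on the log2 scale (limma adjusted p = 0.00270, 0.00521 and 0.00333), and 11 of the 15 calls held whichever library was left out. MRPL20 and RSM26 (mS42, which like MRP1 is related to superoxide dismutases) were lower, by 0.21 and 0.19 (limma adjusted p = 0.0165 and 0.0411), and both changed sign with total-read scaling. The count of 2 was 1 without snf2 deletion 1 or 2 and 0 without swp82 deletion 2 or snf2 deletion 3.

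MRP8, the member that is not a ribosomal protein, stood apart from the rest in size and spread. It measured 213, 146 and 106 scaled CPM in the snf5 deletion, 143, 115 and 113 in the wild type, 164, 139 and 154 in the snf2 deletion, and 112, 76.2 and 82.5 in the swp82 deletion. The snf5 deletion values covered the whole wild-type range. Against the wild type its log2 fold changes were 0.28, 0.30 and -0.46 in the snf5, snf2 and swp82 deletions, none past the threshold (limma adjusted p = 0.390, 0.337 and 0.223). Against the swp82 deletion it was higher by 0.74 in the snf5 deletion and by 0.76 in the snf2 deletion (limma adjusted p = 0.0210 and 0.0170), and each call was lost in 3 of the 6 fits that left out 1 library. Without MRP8 the largest change of any member in any comparison was 0.53, that of MRP1.

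Genes that work with the mitoribosome were also called lower more often than higher in the snf5 deletion. The share of all genes tested was 14.5% lower and 14.8% higher. Of 13 mitoribosomal genes with other names, 6 fell (46.2%) and 0 rose (limma), with a median of -0.19. At an unadjusted p under 0.05, 10 of the 13 were lower and 0 higher, and edgeR and DESeq2 also called 0 higher. They included MNP1, the bL12 protein of the stalk, at 122 ± 2.35 scaled CPM against 163 ± 5.36 in the wild type (log2 fold change -0.42, adjusted p = 0.000132), and RML2 (uL2), IMG2 (mL49) and NAM9 (uS4), lower by 0.31, 0.23 and 0.19. Of 36 mitochondrial translation factors and ribosome assembly genes, 17 fell (47.2%) and 1 rose, with a median of -0.21. IFM1, the mitochondrial initiation factor, fell by 0.49, MAM33, a matrix protein needed for translation, by 0.46, and CBS2 and PET54, activators of COB and COX3 translation, by 0.40 and 0.35. Of 14 mitochondrial tRNA synthetase genes, 3 fell (21.4%, nearer to the share of all genes): MSD1 (aspartate) by 0.81, MSR1 (arginine) by 0.41 and MSY1 (tyrosine) by 0.31. Of 13 genes of mitochondrial transcription and RNA processing, 5 fell (38.5%) and 1 rose. RPM2, a subunit of mitochondrial RNase P, fell by 0.68, MSS116, an RNA helicase, by 0.44 and RMD9 by 0.21, while ABF2, which packages mitochondrial DNA, rose by 0.22 (all adjusted p under 0.05, limma). Leaving out 1 library gave 4 to 6, 9 to 15, 3 to 6 and 3 to 5 falls in these 4 lists, with 9 translation factors called without wild type 1 and 10 without wild type 2. Of the genes named here, RMD9 lost its call in 4 of the 6 fits without 1 library and NAM9 in 1. With total-read scaling the falls in the 4 lists numbered 1, 5, 2 and 3 and the rises 0, 3, 0 and 2. The excess of falls was thus small, and the share of all genes called was not counted with that scaling. The 4 medians stayed below 0. RML2, IMG2, NAM9, MSY1 and RMD9 were no longer called with that scaling.

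Of the 76 genes on these 4 lists, 7 were called in the snf2 deletion and 3 in the swp82 deletion. In the snf2 deletion, where 14.1% of all genes were called lower and 13.6% higher, the 13 other mitoribosomal genes had 0 calls in either direction by limma and edgeR and 1 fall by DESeq2 (3 lower and 0 higher at an unadjusted limma p under 0.05). The 36 translation factors had 1 rise (ATP22) and 3 falls (OXA1, MAM33 and PET54, 8.33%), the tRNA synthetases 2 falls (MSR1 and MSD1, 14.3%) and the transcription and RNA genes 1 fall (MTO1, 7.69%). Of these calls, those of OXA1 and MSR1 held whichever library was left out, while MTO1 lost its call in all 6 such fits, PET54 in 4, ATP22 and MSD1 in 3 each and MAM33 in 1 (without snf2 deletion 2). In the swp82 deletion, where 2.08% of all genes were called lower, 2 translation factors (MAM33 and OXA1, 5.56%) and 1 tRNA synthetase (MSD1, 7.14%) fell. MAM33 and OXA1 lost their calls in 5 of the 6 fits without 1 library and MSD1 in 4, and the falls ranged from 0 to 7 and from 0 to 4 in these lists. With total-read scaling, 4 of the other mitoribosomal genes and 8 of the translation factors rose in the snf2 deletion, and 0 genes of the 4 lists fell there. Genes encoded in mitochondrial DNA were not analysed here.

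The cytosolic ribosomal protein genes and the respiratory chain genes are set beside the mitoribosomal genes here as the other parts of the cell's translation and respiration machinery. Of 137 cytosolic ribosomal protein genes, 122 fell (89.1%, against 14.1% of all genes tested) and 2 rose in the snf2 deletion, with a median of -0.33. The mitochondrial members had a median of -0.06 there (0.09 with total-read scaling, where that of the cytosolic genes was -0.19). In the swp82 deletion the medians had opposite signs, 0.23 for the cytosolic and -0.11 for the mitochondrial genes, and in the snf5 deletion they were -0.10 and -0.19. The cytosolic value of -0.10 was -0.18 without snf5 deletion 3, -0.06 without snf5 deletion 1 and -0.01 with total-read scaling. Of 36 respiratory chain and ATP synthase genes, 20 rose in the snf2 deletion (55.6%, against 13.6% of all genes, median 0.38). In the snf5 deletion 8 rose and 2 fell (22.2% and 5.56%, against 14.8% and 14.5%, median 0.04). In the swp82 deletion 0 rose and 1 fell (2.78% lower, near the 2.08% of all genes, median -0.26). Few passed the test there, yet 35 of the 36 were below 0, against 2873 of the 5820 genes tested. In 28 of the 36 the 3 swp82 deletion libraries all lay below the wild type, where 16.1% of all genes did. Without any 1 library, 87 to 125 cytosolic genes fell and 14 to 23 respiratory genes rose in the snf2 deletion, and 3 (without wild type 2) to 9 respiratory genes rose in the snf5 deletion, where their median was -0.0035 without snf5 deletion 1. In the swp82 deletion 13 respiratory genes fell without swp82 deletion 1, and 0 without any other library. The difference between the lists was not tested.

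**Figure D5:**
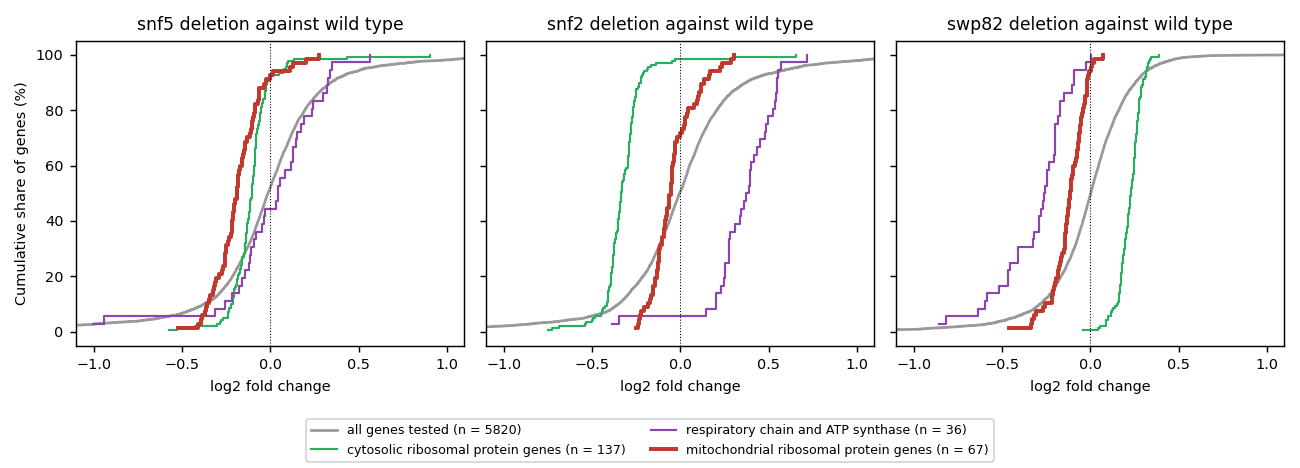
Cumulative share of genes by log2 fold change against the wild type in each deletion, for the 67 members, 137 cytosolic ribosomal protein genes, 36 respiratory chain and ATP synthase genes and all 5820 genes tested; the axis is cut at ±1.1. The members lie left of all genes in the snf5 deletion (median -0.19), near 0 in the snf2 deletion (-0.06, or 0.09 with total-read scaling) and between the other lists in the swp82 deletion (-0.11).

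Among 17 regulators of ribosomal and mitochondrial genes, HAP4 had the widest differences. HAP4 is the activating subunit of the HAP complex, which turns on respiratory genes. It measured 57.6, 33.1 and 15.97 scaled CPM in the snf5 deletion, 80.3, 82.5 and 68.9 in the wild type, 170, 126 and 128 in the snf2 deletion, and 74.1, 76.2 and 56.9 in the swp82 deletion. The snf5 deletion libraries all lay below the wild type but spread over a wide range, and the snf2 deletion libraries were all above the wild type. The fall of HAP4 without Snf5 was 1.27 on the log2 scale (limma adjusted p = 0.0165, or 0.0553 without wild type 2), and its log2 fold change of 0.85 in the snf2 deletion did not pass (adjusted p = 0.0856). Between the snf5 and snf2 deletions the difference was -2.12 (adjusted p = 0.00382). The DNA-binding subunits HAP2 and HAP3 rose in the snf5 deletion, by 0.22 and 0.29, and HAP5 fell in the swp82 deletion by 0.26 (limma adjusted p = 0.0373, 0.00897 and 0.0495).

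PUF3 encodes an RNA-binding protein known to bind messages of mitochondrial proteins, those of the mitoribosome among them. Its level was 52.3 ± 3.37 scaled CPM in the wild type, 37.4 ± 4.13 in the snf5 deletion, and on average 39.6 without Snf2 and 40.6 without Swp82. It fell by 0.48 in the snf5 deletion and by 0.39 in the snf2 deletion, and the log2 fold change of -0.36 in the swp82 deletion did not pass (limma adjusted p = 0.00296, 0.00890 and 0.0617). SFP1, an activator of cytosolic ribosomal protein genes, fell by 0.50 and 0.47 in the snf5 and snf2 deletions. RTG2, of the mitochondrial retrograde pathway, rose by 0.30 in both, and RTG1 fell by 0.28 in the snf5 deletion. In the snf2 deletion HAP2 and CRF1, a repressor of cytosolic ribosomal protein genes, rose by 0.25 and 0.67, and CBF1 and FHL1 fell by 0.21 and 0.20. CBF1 also fell in the swp82 deletion, by 0.20. No call was made in any deletion against the wild type for ABF1, REB1, RAP1, HAP1, RTG3 or IFH1. Leaving out 1 library could end the calls of HAP2 in both deletions, RTG1 and FHL1, and those of CBF1 and HAP5 in the swp82 deletion (adjusted p up to 0.20), and with total-read scaling RTG1 in the snf5 deletion and CBF1 and FHL1 in the snf2 deletion were no longer called. The part of these regulators in the levels of the members was not tested.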

How the data were processed

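RNA of 12 yeast cultures (4 strains, 3 cultures each) was sequenced with a stranded mRNA kit, per the labels' protocols. Reads were processed with TopHat2 2.0.10, Bowtie2 2.1.0 and edgeR 3.8.6 on the sacCer3 build, per the submitters' processing notes. Counter, strand setting and annotation: not given in the sources used here. In the main deposited table the authors give a signal per gene: read counts scaled to library size (CPM) and divided by a library factor, called scaled CPM here. All values (100%) were whole multiples of the value of 1 read (tolerance 0.05 of a read), the reads recovered this way gave library totals of 9012746 to 12875057, and scaling factors recomputed from them by edgeR's TMM method matched the deposited scale. A 2nd table, the authors' deposited table of 506 genes changed at least 2-fold with group means as signal, was used only to look up members.

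Differences were tested with limma 3.58.1 (trend, two-sided) on log2(scaled CPM + 1) over the 5820 genes that reached 1 scaled CPM in 3 or more libraries (115 genes were removed), with group as the only term, all 12 libraries in the fit, and Benjamini-Hochberg adjustment over all genes tested (threshold 0.05). The scripts were tested on simulated data. Alternatives were a pseudocount of 0.1, no filter, total-read scaling, median-of-ratios scaling, edgeR 4.0.16 (quasi-likelihood) and DESeq2 1.42.0 on the recovered reads, the replicate block, only the 2 groups compared, and leaving out each library; the last, with both scalings, was added for the other gene lists after seeing the data, as was total-read scaling for the order of strains, the members changing sign, those lower than in each other strain, and the Reb1 motif. Labels share replicate numbers across strains. Deviations from group means of same-numbered libraries correlated above 0.1 in every pair for the wild type with the swp82 deletion (0.255 to 0.599) and the swp82 with the snf5 deletion (0.116 to 0.660), so those numbers were taken as pairing the cultures, from the data and not from the design. The other 4 combinations had a pair at or under 0.1. Pairing through the swp82 deletion would also pair the wild type with the snf5 deletion, where the correlations were 0.617, 0.0521 and 0.423. The threshold thus cannot decide which cultures are paired, and the labels do not say what the numbers mark. The fits were run in R 4.3.3. Gene names, lengths and sequences were taken from the RefSeq R64 assembly, the same build as sacCer3, and 5685 of 5935 table genes matched a RefSeq name. Members were named in the text by rule: up to 8 called members each way by size against the wild type, up to 4 each way between deletions, the 3 highest and 3 lowest levels per kilobase, MRP8, up to 4 called genes of each other list and comparison by smallest p, and all regulators; other members were named after their values were seen. The members and lists were chosen with earlier results of these data known. Intervals and floors cover counting error only.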

Additional observations from a re-analysis of the deposited data

How the results depend on the processing

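Of 144 counts and medians recomputed under the alternatives that keep all libraries, 122 stayed on the same side and within 1.5 times (or 1 SD), 20 moved and 2 changed sign. Most of the changes came from total-read scaling, which moves the median of all genes by up to 0.22. With it the members called higher and lower were 2 and 13 in the snf5 deletion against the wild type (median -0.10), 12 and 0 in the snf2 deletion (median 0.085, sign changed), and 0 and 10 in the swp82 deletion (median -0.19). It gave a median of -0.17 for the snf5 against the snf2 deletion, 17 higher and 1 lower for the snf5 against the swp82 deletion (median 0.094, sign changed), and 52 higher and 0 lower for the snf2 against the swp82 deletion (median 0.27). Relative to the median of all genes, the members' medians then differed little from those reported, at -0.17, -0.05, -0.12, -0.12, -0.06 and 0.06 in that order. Shares of all genes called in these comparisons were not counted with total-read scaling, so its counts have no background beside them. Fitting only the 2 groups compared gave 0 higher for the snf5 deletion against the wild type, 8 lower for the snf2 deletion, 0 lower for the swp82 deletion, 4 lower for the snf5 against the snf2 deletion, and 1 higher and 6 lower for the snf5 against the swp82 deletion. That fit takes the spread from 6 libraries in place of 12. DESeq2 called 8 members lower in the swp82 deletion; the cause was not tested.

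Without any 1 library the counts higher and lower ranged from 0 to 1 and 19 to 30 (snf5 deletion against the wild type), 2 to 3 and 0 to 5 (snf2 deletion), 0 to 0 and 0 to 8 (swp82 deletion), 0 to 0 and 5 to 16 (snf5 against snf2 deletion), 1 to 5 and 8 to 13 (snf5 against swp82 deletion), and 11 to 17 and 0 to 2 (snf2 against swp82 deletion). The medians kept their sign in all of these fits.

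With the replicate block, in the comparisons where the correlations led the numbers to be taken as pairing, 7 members fell in the swp82 deletion compared with wild type (RSM7 and MRP20 joining the 5, while all genes called lower rose to 6.68%), and 12 were lower and 3 higher in the snf5 against the swp82 deletion. Elsewhere the correlations did not reach the threshold in every pair, and whether the numbers pair those cultures is not known. There the block gave 1 higher and 32 lower for the snf5 deletion, 4 and 6 for the snf2 deletion, 18 lower for the snf5 against the snf2 deletion, and 15 and 2 for the snf2 against the swp82 deletion. The block changed no other call of a named member in the comparisons taken as paired.

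With total-read scaling 8, 34, 4, 6, 30 and 22 of the 67 members changed sign, in the order of comparisons above, and of these only MRPL20 and RSM26 in the snf2 against the swp82 deletion had been called. Among the members named by rule, MRPS12 was 0.0013 in the snf5 deletion, and in the snf2 deletion MRPS5 was 0.018, MRPL24 0.062, MRPS16 0.016, MRPL39 0.11 and MRPS12 0.037. Between the snf2 and swp82 deletions MRPL20 became 0.0049 and RSM26 0.030. Without any 1 library, MRPL39 in the snf2 deletion ranged from -0.070 to 0.012, the latter without wild type 1. With 3 cultures a strain, changes under about 0.2 on the log2 scale were mostly not called.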
